A study of Homo sapiens with 30 samples.

Results

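RSRP1-knockout and wild-type A549 cells were compared in libraries that carry the labels iR and D3 and had received a magnetic exposure. A549 is an established human lung adenocarcinoma line that stands in for non-small-cell lung cancer. The 6 libraries, of 30 in the series, were the 3 titled iR_KOA_D3_EX (RSRP1 knockout, magnetic exposure labelled 2 H) and the 3 titled iR_WTA_D3_EX (wild type, the same exposure), chosen by title alone. The labels do not spell out iR or D3, and neither the deleted stretch of RSRP1 nor whether either line came from a single clone is stated. Effects of the knockout and of any other difference between the lines therefore cannot be told apart. No label ties the 3 libraries of a group to separate cultures. The p-values then reflect only the spread among libraries within groups, pooled over all 10 groups of the series. That spread may be technical, and it was uneven between groups. The same genotype contrast was also taken in unexposed iR D3 cells (iR_KOA_D3_NE and iR_WTA_D3_NE), exposed iR cells without D3 (iR_KOA_EX and iR_WTA_EX) and unexposed iR cells without D3 (iR_KOA_NE and iR_WTA_NE), with 3 libraries in each group. The series title names RSRP1 and a secretory axis as the route by which a magnetic field acts on lung cancer cells, and the contrast asks which transcripts differed where RSRP1 was disrupted.

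RSRP1 encodes a protein rich in arginine and serine, the composition found in the SR family of splicing proteins. SR proteins bind exons and recruit the spliceosome, the complex that removes introns, and kinases of the CLK and SRPK families control them by phosphorylation. A549 cells carry an inactivating mutation of KEAP1, which leaves the antioxidant transcription factor NRF2 active, and they secrete matrix, complement and mucin proteins.

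Values are FPKM, fragments scaled for transcript length and for library size, as the authors deposited them. Differences are knockout minus wild type on the log2(FPKM + 1) scale, which compresses differences where levels are low. A gene was called where limma's moderated test, fitted over 12086 genes and all 10 groups of the series, gave a Benjamini-Hochberg adjusted p under 0.05, two-sided. Each of the 6 libraries held 33753108 to 37951389 reads, as recovered from the steps between its FPKM values. Pearson correlations over genes were 0.9899 to 0.9976 between libraries of 1 genotype and 0.9464 to 0.9528 between genotypes. The first principal component of the 6 libraries, with 88.17% of the variance, separated the genotypes, and the next, with 6.55%, set wild-type replicate 2 apart from wild-type replicate 3. Mitochondrially encoded genes held 27.2%, 29.1% and 27.9% of all FPKM in knockout libraries and 22.5%, 21.5% and 23.4% in wild-type libraries. This share moves with the genotype, and counts are therefore also given for genes called in the same direction under 3 other scalings, by median-of-ratios, by quantile normalization and by rescaling without the mitochondrial genes.

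The libraries carried the epithelial keratins of A549 and low levels of markers of other cells. Of 14 markers of A549 and lung epithelium, 9 reached 1 FPKM, with summed levels of 7960 to 8450 FPKM in knockout and 6630 to 6810 FPKM in wild type. The alveolar markers NKX2-1, SFTPB, SFTPC, SFTPD and NAPSA stayed at or below 0.836 FPKM in all 6 libraries. Of 10 fibroblast markers 2 reached 1 FPKM, COL1A1 and THY1, with sums of 0.79 to 0.881 FPKM in knockout and 4.56 to 6.15 FPKM in wild type for the whole list. Of 8 endothelial markers 1 did so, ESAM, with sums of 1.22 to 1.45 FPKM in knockout and 1.26 to 1.98 FPKM in wild type. Of 8 leukocyte markers 2 did so, CD68 and CD14, which epithelial cells also express, with sums of 37.7 to 39.5 FPKM in knockout and 30.1 to 38.2 FPKM in wild type; CD14 was higher (2.40) and CD68 lower (−0.35) in the knockout. CLDN5 and TYROBP were listed at 0 in all 6 libraries.

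RSRP1 itself (chr1:25242249-25338254 in the RefSeq annotation of GRCh38.p14, NCBI gene 57035) held 7.21, 6.46 and 6.87 FPKM in the knockout libraries and 53.4, 59.9 and 53.6 FPKM in the wild-type libraries. The groups were far apart, and transcript was still detected in every knockout library. The difference was −2.85 ± 0.059 SE, adjusted p = 2.02e-23, with means of 6.85 ± 0.38 FPKM in knockout and 55.6 ± 3.7 FPKM in wild type (SD, n = 3 each; every mean ± SD that follows has the same n). The same contrast gave −2.48 in unexposed iR D3 cells, −3.13 in exposed iR cells and −2.53 in unexposed iR cells.

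Differences between the genotypes reached most expressed genes, and most were small. Of 12086 genes tested, 8447 were called (69.9%), 3144 higher (26.0%) and 5303 lower (43.9%) in the knockout. Where only the compared groups were fitted, 7545 were called, 2805 higher and 4740 lower. In the same direction under all 3 other scalings, 7348 were called (60.8%), 3127 higher (25.9%) and 4221 lower (34.9%). The share of calls that were higher was 37.2% as deposited, 46.5% after median-of-ratios, 46.1% after quantile normalization and 40.8% without the mitochondrial genes. The median difference over all genes tested was −0.093 as deposited, −0.027 after median-of-ratios, −0.030 after quantile normalization and −0.065 without the mitochondrial genes, and list medians below are as deposited unless a scaling is named. Among the calls, 728 genes (6.02%) differed by at least 1 in size, 363 of them higher (3.00%) and 365 lower (3.02%) in the knockout, and all 728 were also called in the same direction under each of the 3 other scalings. With a pseudocount of 0.1 in place of 1, which enlarges the differences of low genes, 1414 genes reached that size. Differences of 3 or more were seen in 18 genes that rose and 20 that fell. The libraries of the groups did not overlap for 8239 genes (68.2%). Of 8 tested genes near RSRP1 on chromosome 1, 2 were higher and 3 lower in the knockout, shares near those of all tested genes. RUNX3, a transcription factor (−0.77), CLIC4 of the chloride channel family (−0.57) and the splicing coactivator SRRM1 (−0.42) were lower, and RCAN3, an inhibitor of calcineurin (0.30), was higher.

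**Figure D1:**
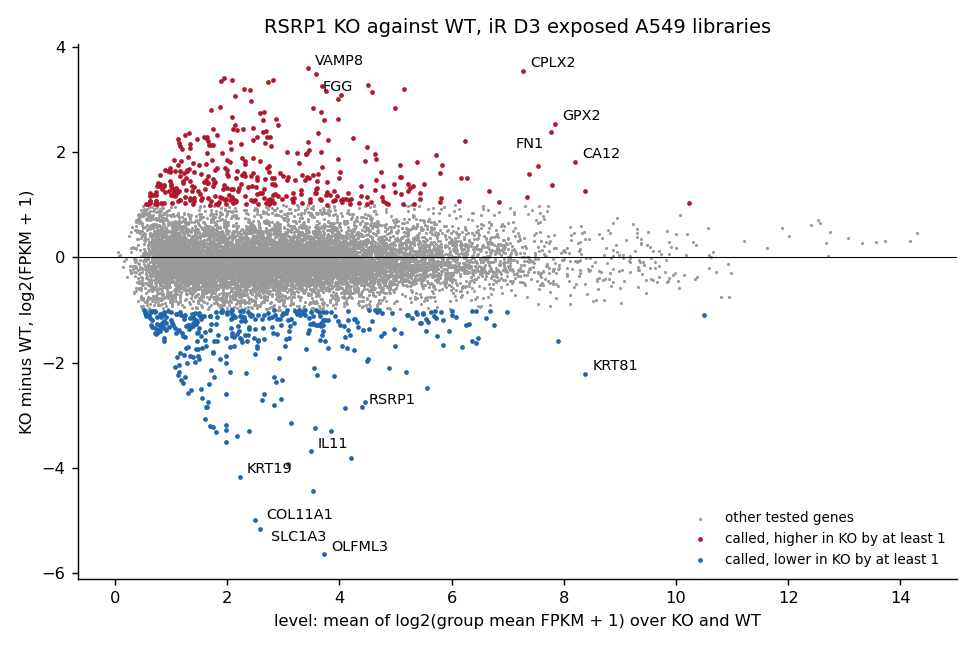
Each point is 1 of 12086 genes, with its level on the horizontal axis and the knockout minus wild-type difference on the vertical axis, both in log2(FPKM + 1). Red and blue mark the 363 genes called higher and the 365 called lower by at least 1, with OLFML3 lowest at −5.65 and VAMP8 at 3.59.

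The largest rises included proteins of the secretory pathway and secreted proteins. VAMP8, a SNARE protein of endosomes and regulated exocytosis, held 36.5, 39.3 and 34.0 FPKM in knockout and 2.2, 2.2 and 1.94 FPKM in wild type (difference 3.59 ± 0.099 SE, adjusted p = 7.8e-21). CPLX2, a complexin that binds assembled SNARE complexes and times vesicle fusion, held 530, 514 and 526 FPKM in knockout and 42.8, 48.7 and 41.0 FPKM in wild type (3.54, adjusted p = 5.27e-27). For both genes the libraries of each genotype lay close together. The rule that named them required separate libraries of the genotypes, which 68.2% of all tested genes had. MUC5B, a gel-forming airway mucin, held 39.1, 37.0 and 41.5 FPKM in knockout and 2.77, 4.68 and 3.25 FPKM in wild type (3.16). Its antisense transcript MUC5B-AS1 (3.38) cannot be told apart from it, since no source used here states whether counting was stranded. SLPI, a secreted protease inhibitor of airway mucus, held 68.5, 71.1 and 71.3 FPKM in knockout and 7.19, 7.28 and 6.9 FPKM in wild type (3.13).

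The other rises of this size were of several kinds. They were the fibrinogen chain FGG (3.48), the neurotensin precursor NTS (3.41), the cancer-testis antigen MAGEA6 (3.36), whose reads may be shared with the near-identical MAGEA3, the potassium channel subunit KCNS3 (3.35), the tetraspanin TSPAN8 (3.34), the secreted kinase PKDCC (3.27), the cytidine deaminase CDA (3.26), the acyl-CoA synthetase SLC27A2 (3.20), PPARGC1A, a coactivator of mitochondrial genes (3.20), and the calcium pump ATP2A3 (3.17). SLC27A2, which activates long-chain fatty acids, held 109, 104 and 106 FPKM in knockout and 9.82, 11.6 and 10.7 FPKM in wild type. PPARGC1A held 13.7, 13.5 and 14.9 FPKM in knockout and 0.615, 0.535 and 0.754 FPKM in wild type. The rule that named these 15 rises also required a call, and the highest adjusted p among them was 6.81e-12, for MUC5B-AS1.

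The largest falls were led by matrix and transport genes, several of them close to absent in the knockout. OLFML3, a secreted olfactomedin-family glycoprotein, held 0.845, 0.87 and 0.88 FPKM in knockout and 97.0, 90.6 and 90.1 FPKM in wild type (−5.65 ± 0.092 SE, adjusted p = 1.75e-25). COL11A1, a fibrillar collagen chain, held 0, 0 and 0.00347 FPKM in knockout and 31.8, 29.7 and 31.7 FPKM in wild type (−5.00). SLC1A3, a glutamate and aspartate transporter, held 0.00599, 0 and 0.00588 FPKM in knockout and 35.4, 34.1 and 35.2 FPKM in wild type (−5.16). In all 3 genes the wild-type libraries were tightly grouped and the knockout libraries lay below 1 FPKM. MMP2, which degrades type IV collagen, held 1.57, 1.65 and 1.17 FPKM in knockout and 53.6, 57.8 and 46.8 FPKM in wild type (−4.45), and the proteoglycan VCAN held 1.28, 1.09 and 1.13 FPKM in knockout and 29.9, 32.9 and 33.7 FPKM in wild type (−3.94).

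KRT19, an epithelial keratin on the marker list, held 0.103, 0.0991 and 0.0813 FPKM in knockout and 17.7, 22.8 and 16.3 FPKM in wild type (−4.17). KRT7, KRT8 and KRT18, the other keratins of that list, differed by −0.45, 0.18 and −0.09, and the difference of KRT18 did not pass (adjusted p = 0.103, and 0.0129 without iR_WTA_D3_EX replicate 3). The cytokine IL11 held 2.36, 2.05 and 1.95 FPKM in knockout and 42.8, 38.2 and 36.8 FPKM in wild type (−3.69). The other large falls were the annexin ANXA10 (−3.81), the glucuronosyltransferase UGT1A9 (−3.51), which shares exons with the other UGT1A genes, the neuropeptide precursor VGF (−3.40), the lipid-droplet protein PNPLA3 (−3.32), the growth factor MDK (−3.30), the cadherin CDH16 (−3.27) and the creatine kinase CKB (−3.25). The rule that named these falls and the 15 rises required that no knockout library overlapped a wild-type library.

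**Figure D2:**
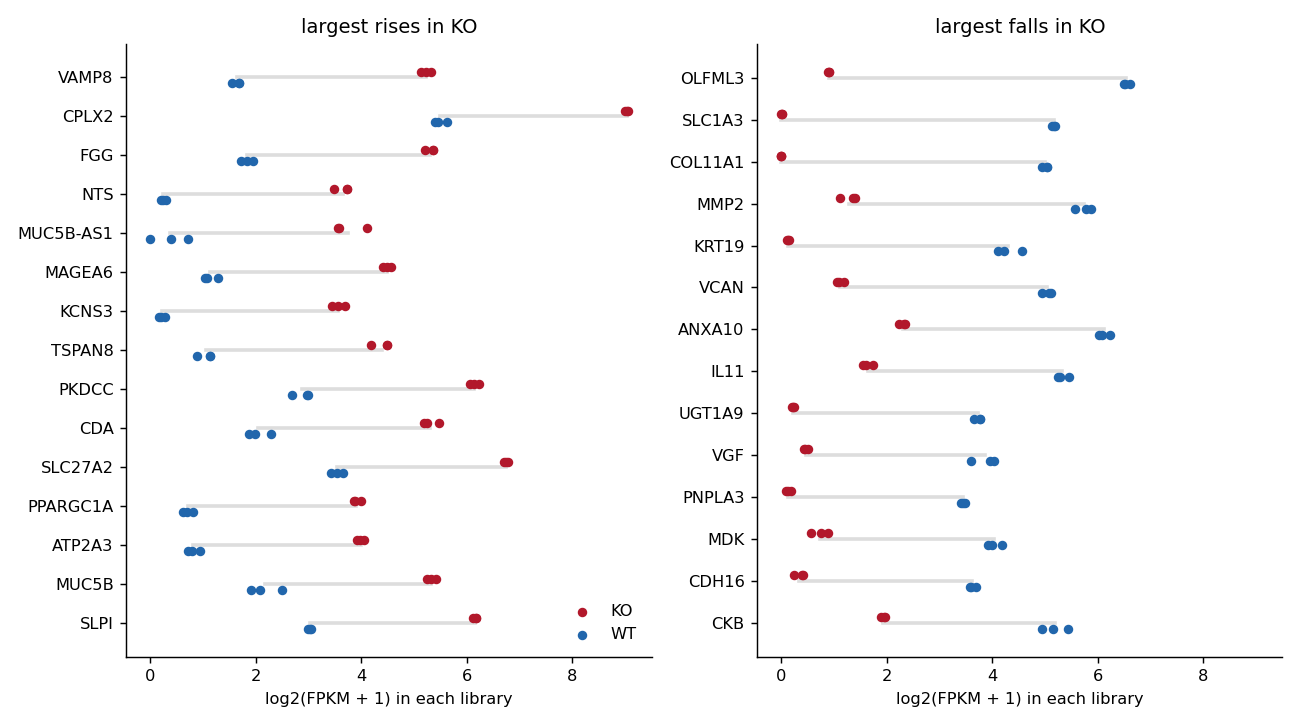
Level of the 15 largest rises (left) and of the largest falls named in the text (right) in each of the 3 knockout (red) and 3 wild-type (blue) libraries, as log2(FPKM + 1). CPLX2 held 530, 514 and 526 FPKM in knockout and 42.8, 48.7 and 41.0 FPKM in wild type, and COL11A1 and SLC1A3 lay at or near 0 in knockout.

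Collagen genes split by chain. Of 24 tested collagen and laminin genes, 15 were lower and 8 higher in the knockout, with a median of −0.66 beside −0.093 over all genes. The shares of all tested genes were 43.9% lower and 26.0% higher. COL5A1, a fibrillar chain, held 1.95, 2.12 and 2.15 FPKM in knockout and 19.7, 20.0 and 17.0 FPKM in wild type (−2.69). The basement membrane chains COL4A1 (1.59, 1.55 and 1.58 FPKM in knockout, 15.2, 14.7 and 13.7 FPKM in wild type, a difference of −2.59) and COL4A2 (17.1, 15.7 and 15.4 FPKM in knockout, 77.7, 83.6 and 69.6 FPKM in wild type, a difference of −2.19), which lie side by side in the genome, both fell. Another adjacent pair of type IV chains, COL4A3 (2.01 ± 0.074 FPKM in knockout and 0.327 ± 0.0519 FPKM in wild type, a difference of 1.18) and COL4A4 (3.09 ± 0.187 FPKM in knockout and 0.34 ± 0.0441 FPKM in wild type, a difference of 1.61), rose. COL4A3 and COL4A4 were singled out after their values were seen.

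Among 38 secreted matrix proteins and proteoglycans 20 fell and 15 rose, and the largest changes ran both ways. FN1, the fibronectin gene, held 505, 512 and 485 FPKM in knockout and 92.8, 103 and 90.3 FPKM in wild type (2.38). Vitronectin, VTN, another adhesive glycoprotein bound by integrins, held 29.2, 30.8 and 29.7 FPKM in knockout and 4.02, 3.0 and 2.98 FPKM in wild type (2.84). Of 14 integrin subunits 7 fell and 5 rose, with 43.9% lower and 26.0% higher among all tested genes. ITGB3, the beta chain of a vitronectin receptor, held 0.155, 0.153 and 0.185 FPKM in knockout and 7.3, 7.29 and 7.62 FPKM in wild type (−2.85), and ITGA5, the alpha chain of the main fibronectin receptor, held 9.35 ± 0.27 FPKM in knockout and 24.3 ± 0.83 FPKM in wild type (−1.29). ITGB6 (−1.03) and ITGA10 (−1.03) also fell, from low wild-type levels of 1.24 and 1.27 FPKM. By at least 1, 4 subunits fell and 1 rose. The summed level of the 14 subunits was 739 ± 2.5 FPKM in knockout and 719 ± 15.0 FPKM in wild type. Of 21 matrix proteases and inhibitors 12 fell and 6 rose. MMP7, an epithelial metalloproteinase, rose to 102 ± 4.4 FPKM in knockout, against 25.9 ± 1.7 FPKM in wild type (1.94), while ADAM19 (−1.47) and MMP17 (−1.47) fell.

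Genes linked to the mesenchymal state were mostly lower. Of 22 tested, 16 fell and 3 rose, with a median of −0.595, and 14 of the falls held under all 3 other scalings. Among all tested genes 43.9% were lower and 26.0% higher. The cadherin CDH6 held 0.564 ± 0.022 FPKM in knockout and 5.88 ± 0.59 FPKM in wild type (−2.135), the tropomyosins TPM1 (−1.96) and TPM2 (−1.62) fell, and SNAI2, a repressor of E-cadherin, held 0.232 ± 0.023 FPKM in knockout and 3.5 ± 0.45 FPKM in wild type (−1.86). Of 27 epithelial adhesion and keratin genes 11 rose and 10 fell. Besides KRT19, KRT81 fell (154 ± 12.0 FPKM in knockout and 714 ± 41.0 FPKM in wild type, a difference of −2.21), as did KRT86 (−1.56), 2 similar hair-keratin genes that may exchange reads, and the epithelial transcription factor EHF rose (1.57). In bulk RNA, fewer cells of a type and less RNA per cell cannot be told apart. The fibroblast markers COL1A1 (−1.18) and THY1 (−1.35) were lower in the knockout as well, the other 8 of that list lay at or below 0.648 FPKM, and their part in this result was not tested.

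Genes of the acute-phase response, complement and coagulation, which liver cells make in quantity, were mostly higher. Of 29 tested, 21 rose and 6 fell, with a median of 0.45, beside 26.0% higher and 43.9% lower among all tested genes. The fibrinogen chains FGG (36.1, 40.0 and 40.1 FPKM in knockout, 2.87, 2.57 and 2.29 FPKM in wild type) and FGA (38.4, 36.9 and 38.5 FPKM in knockout, 5.42, 5.53 and 4.96 FPKM in wild type, a difference of 2.63) rose together, with complement factor B, CFB (9.52 ± 0.47 FPKM in knockout and 0.829 ± 0.019 FPKM in wild type, a difference of 2.52). The apolipoprotein APOC1 fell to 5.32 ± 0.59 FPKM in knockout, against 45.1 ± 3.5 FPKM in wild type (−2.87). Of 13 mucin and airway secretory genes 8 rose and 3 fell. Next to MUC5B and SLPI, the pioneer transcription factor FOXA1 rose (1.805), while the adhesion molecule CEACAM6 fell to 7.46 ± 0.73 FPKM, against 55.7 ± 2.2 FPKM in wild type (−2.75).

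Cytokine genes did not move one way. Of 18 tested chemokines and cytokines, 9 rose and 6 fell, with a median of 0.08 as deposited and 0.161 after median-of-ratios. After IL11, the neutrophil chemokine CXCL1 held 6.76, 9.36 and 8.42 FPKM in knockout and 27.2, 31.0 and 27.5 FPKM in wild type (−1.69), and the monocyte chemokine CCL2 held 3.45, 5.09 and 4.42 FPKM in knockout and 13.6, 11.8 and 13.2 FPKM in wild type (−1.39). Both were lower in every knockout library than in any wild-type library, and 68.2% of all tested genes likewise had separate libraries. The chemokine CXCL16 rose to 10.5 ± 0.69 FPKM in knockout, against 3.45 ± 0.88 FPKM in wild type (1.385). Of 18 NF-kB pathway genes 10 fell and 4 rose, beside 43.9% lower and 26.0% higher among all tested genes. Under all 3 other scalings 8 falls and 4 rises held. The median of this list was −0.181 as deposited and −0.113 after median-of-ratios. Among the falls were the inducible regulator NFKBIZ (−1.04), the subunit NFKB2 (−0.86), the signalling kinase IRAK2 (−0.77) and the ubiquitin-binding inhibitor TNIP1 (−0.63).

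Growth factor pathways changed in a few members by a large amount. Of 36 genes of TGF-beta and BMP signalling 13 rose and 15 fell, beside 26.0% higher and 43.9% lower among all tested genes. The activin subunit INHBB held 44.5, 47.2 and 47.7 FPKM in knockout and 4.6, 4.96 and 4.25 FPKM in wild type (3.08), the ligand BMP2 (−1.32) and the activin antagonist FST (−1.135) fell, and the decoy receptor BAMBI rose (0.99). Of 28 Wnt pathway genes 13 rose and 11 fell. The receptor FZD8 held 0.306 ± 0.038 FPKM in knockout and 10.9 ± 1.1 FPKM in wild type (−3.18), whereas the receptor FZD7 (1.11), the R-spondin receptor LGR6 (1.82) and RNF43 (1.39), a ubiquitin ligase that removes Frizzled receptors, rose. The EGF-family ligands EREG (−1.55), NRG1 (−0.98) and BTC (−0.73) fell, and LRIG1, which restrains EGF receptors, rose (0.75), in a list of 13 with 7 higher and 6 lower. Of 18 genes of the insulin-like growth factor axis 9 rose and 7 fell, with IGFBP2, which binds the growth factors (13.4 ± 0.37 FPKM in knockout and 1.97 ± 0.4 FPKM in wild type, a difference of 2.28), and the adaptor IRS2 (1.79) higher and the RNA-binding protein IGF2BP3 (−1.18) lower.

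Genes of DNA replication were lower with few exceptions. Of 51 tested S-phase genes 49 fell, 1 rose and 1 did not pass, beside 43.9% lower and 26.0% higher among all tested genes. The same number, 49, fell under all 3 other scalings, and the median was −0.86. Their summed level was 575, 561 and 578 FPKM in knockout libraries and 953, 998 and 969 FPKM in wild-type libraries. CDT1, which loads the replicative helicase onto origins, held 2.13, 2.28 and 2.26 FPKM in knockout and 8.5, 11.2 and 8.45 FPKM in wild type (−1.68 ± 0.076 SE, adjusted p = 2.75e-16). Its loading partner CDC6 held 5.84, 5.1 and 5.93 FPKM in knockout and 17.0, 16.7 and 16.8 FPKM in wild type (−1.43). UHRF1, which maintains DNA methylation behind the fork, held 1.76, 1.56 and 1.94 FPKM in knockout and 7.26, 8.14 and 6.75 FPKM in wild type (−1.60), and the initiation factor MCM10 differed by −1.40. In each of CDT1, CDC6 and UHRF1 the highest knockout library lay below the lowest wild-type library. Libraries of the genotypes were also separate for 68.2% of all tested genes.

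Mitotic genes were lower by less. Of 53 genes of G2 and mitosis 48 fell and 2 rose, with a median of −0.53. The phosphatase CDC25A (−1.10), the spindle protein HMMR (−1.05), the cohesion factor CDCA5 (−1.01) and the transcription factor FOXM1 (adjusted p = 6.86e-16) had the largest falls. Of 22 CDK inhibitors and E2F factors with their partners 16 fell and 3 rose, among the falls the S-phase kinase CDK2 (−0.78), the activator E2F1 (−0.765) and the repressor E2F7 (−0.78). Of 17 tested replication-dependent histone genes 8 fell, a share of falls near the 43.9% of all tested genes, and H2BC12 had the largest fall (−1.125). The mRNAs of replication-dependent histones mostly lack poly(A) tails, which the oligo(dT) selection requires, and their copies are similar, so these values are uncertain.

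Promoters of S-phase genes are known binding sites of E2F factors, and those of CDT1 and UHRF1, which had the largest falls of the list, are shown with the motif they carry. The 250 bases before the start site were taken from the RefSeq promoter table (GRCh38.p14), in which 43 of the 51 genes and 9885 of all tested genes had an entry. Capitals mark the E2F motif, searched as TTTCCCGC or TTTGGCGC on both strands.
CDT1 (chr16:88803539-88803788, plus strand): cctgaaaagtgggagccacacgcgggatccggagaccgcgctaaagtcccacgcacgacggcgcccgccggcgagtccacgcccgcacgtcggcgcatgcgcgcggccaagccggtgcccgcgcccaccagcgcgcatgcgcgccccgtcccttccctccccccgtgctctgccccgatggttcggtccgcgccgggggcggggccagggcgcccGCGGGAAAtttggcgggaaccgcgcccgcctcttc
UHRF1 (chr19:4909251-4909500, plus strand): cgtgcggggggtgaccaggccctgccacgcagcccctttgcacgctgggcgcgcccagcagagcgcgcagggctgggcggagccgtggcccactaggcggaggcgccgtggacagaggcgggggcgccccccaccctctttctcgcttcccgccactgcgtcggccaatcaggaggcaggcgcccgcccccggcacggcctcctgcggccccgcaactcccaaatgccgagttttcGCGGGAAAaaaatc
The motif lay 35 bases before the start site of CDT1 and 14 bases before that of UHRF1. It was present in 14 of 43 S-phase promoters (32.6%), against 3.28% of the 9885 promoters. A match describes the letters of the window and no more.

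Sterol synthesis genes had a larger median difference than any other pathway list. Of 33 tested genes of cholesterol synthesis and sterol regulation 28 fell and 2 rose, 27 fell under all 3 other scalings as well, and 17 fell by at least 1. The median was −1.02. Among all tested genes 43.9% were lower, 26.0% higher and 3.02% lower by at least 1. The summed level of the list was 789, 747 and 785 FPKM in knockout and 1590, 1600 and 1640 FPKM in wild type. MVD, an enzyme of the mevalonate steps of the pathway, held 9.16, 8.11 and 8.77 FPKM in knockout and 31.9, 33.3 and 27.6 FPKM in wild type (−1.72). MSMO1, which removes methyl groups from sterol intermediates, held 30.8, 28.8 and 34.7 FPKM in knockout and 100, 85.5 and 121 FPKM in wild type (−1.66). In both genes, as in the summed level, every knockout library lay below every wild-type library. Such separation was seen in 68.2% of all tested genes. The motif of the sterol factors SREBP (searched as TCACNCCAC on both strands) lay in 1 of 25 promoters of the list, against 0.84% of the 9885 promoters.

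Genes of fatty acid synthesis and lipid handling were less uniform, with 22 of 39 lower and 12 higher. All tested genes had 43.9% lower and 26.0% higher. FASN, the fatty acid synthase, fell to 46.7 ± 2.4 FPKM in knockout, against 143 ± 17.0 FPKM in wild type (−1.59). PDK4, a kinase that limits glucose oxidation, rose to 162 ± 3.0 FPKM in knockout, against 34.3 ± 5.0 FPKM in wild type (2.22).

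Targets of the stress factors ATF4 and CHOP were lower. Of 26 tested, 19 fell and 3 rose, with the same counts called under all 3 other scalings, and the median was −0.47. NUPR1, a stress-induced chromatin protein, held 0.377, 0.335 and 0.338 FPKM in knockout and 4.78, 4.26 and 4.13 FPKM in wild type (−1.995). TRIB3, a pseudokinase, held 40.8, 38.9 and 39.0 FPKM in knockout and 128, 140 and 125 FPKM in wild type (−1.70). The secreted glycoprotein STC2 (−1.395) and the serine synthesis enzyme PSPH (−1.24) fell as well. Of 30 heat shock chaperones 13 fell and 6 rose, shares near the 43.9% lower and 26.0% higher of all tested genes, and the median was −0.18 as deposited and −0.109 after median-of-ratios. The small chaperone CRYAB (−1.49), the co-chaperone BAG3 (−0.63) and STIP1, which links HSP70 and HSP90 (−0.44), were lower and the mitochondrial co-chaperonin HSPE1 higher (0.81). Of 29 genes of the unfolded protein response 12 fell and 5 rose, a share of falls near that of all tested genes, and the median was −0.085 as deposited and −0.003 after median-of-ratios. Among the falls were the endoplasmic reticulum membrane protein WFS1 (−0.82) and the calcium-binding chaperone CALR (−0.58).

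NRF2 targets were mostly higher. Of 45 tested 35 rose and 5 fell, 32 rose under all 3 other scalings as well, and the median was 0.39. Among all tested genes 26.0% were higher and 43.9% lower. GPX2, a glutathione peroxidase of epithelia, held 564, 534 and 562 FPKM in knockout and 102, 93.3 and 88.8 FPKM in wild type (2.54 ± 0.047 SE, adjusted p = 2.24e-24). The aldo-keto reductases AKR1C1 (338 ± 24.0 FPKM in knockout and 101 ± 3.7 FPKM in wild type, a difference of 1.73) and AKR1C4 (4.23 ± 0.46 FPKM in knockout and 0.234 ± 0.09 FPKM in wild type, a difference of 2.08) belong to a family of near-identical genes whose reads may be exchanged. The fatty acid hydroxylase CYP4F11 also rose (1.35). Of 27 other drug-metabolising enzymes and transporters 14 rose and 6 fell. Among the rises were the cytochrome P450 CYP2S1 (26.7 ± 0.89 FPKM in knockout and 4.39 ± 0.22 FPKM in wild type, a difference of 2.365), the sulfotransferases SULT1A1 (2.42), which has near-identical copies, and SULT2B1 (2.13), and CYP26B1, which degrades retinoic acid (2.13). Of 24 genes of iron handling and ferroptosis 13 rose and 7 fell, with the ferroxidase ceruloplasmin, CP (45.1 ± 1.3 FPKM in knockout and 9.86 ± 1.2 FPKM in wild type, a difference of 2.09), the iron exporter SLC40A1 (1.58) and the reductases STEAP1 (1.22) and STEAP2 (1.09) higher.

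Of 37 hypoxia and glycolysis genes 26 rose and 6 fell, with a median of 0.40, beside 26.0% higher and 43.9% lower among all tested genes. CA12, a membrane carbonic anhydrase, held 546 to 553 FPKM in the 3 knockout libraries and 150, 162 and 153 FPKM in wild-type libraries (1.82). CA9, its relative and a classical hypoxia marker, held 8.44, 13.3 and 10.9 FPKM in knockout and 1.24, 1.79 and 1.52 FPKM in wild type (2.22). The knockout libraries lay above all wild-type libraries in both, with more spread among them for CA9. Separate libraries were found for 68.2% of all tested genes. The prolyl hydroxylase EGLN3 rose to 8.2 ± 0.29 FPKM in knockout, against 1.7 ± 0.17 FPKM in wild type (1.77), and the aldolase ALDOC rose (1.515).

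Promoters are shown for GPX2 and CA9 because each had the largest rise of its list and carries the motif through which NRF2 or the hypoxia-inducible factors are known to act. Capitals mark the antioxidant response element, searched as TGACNNNGC on both strands, in GPX2, and the hypoxia response element, searched as ACGTG on both strands, in CA9 (RefSeq, GRCh38.p14).
GPX2 (chr14:64942746-64942995, minus strand): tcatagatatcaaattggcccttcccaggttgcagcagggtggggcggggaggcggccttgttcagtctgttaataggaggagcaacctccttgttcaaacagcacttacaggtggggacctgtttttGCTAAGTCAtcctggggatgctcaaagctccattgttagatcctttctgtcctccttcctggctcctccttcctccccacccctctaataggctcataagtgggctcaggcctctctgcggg
CA9 (chr9:35673678-35673927, plus strand): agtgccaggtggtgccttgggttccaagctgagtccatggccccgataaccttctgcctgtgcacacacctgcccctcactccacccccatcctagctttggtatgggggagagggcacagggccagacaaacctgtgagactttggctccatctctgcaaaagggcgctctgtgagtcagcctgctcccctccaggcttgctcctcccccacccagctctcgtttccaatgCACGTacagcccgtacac
The first motif was present in 7 of 33 promoters of NRF2 targets (21.2%), against 12.25% of the 9885 promoters, and the second in 13 of 33 promoters of hypoxia genes (39.4%), against 23.92%.

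Nuclear genes of the respiratory chain were higher in 50 of 71 cases and lower in 6, with a median of 0.28, and 50 rose under all 3 other scalings. The shares of all tested genes were 26.0% higher and 43.9% lower. The complex IV subunit COX5B held 229, 242 and 254 FPKM in knockout and 118, 101 and 107 FPKM in wild type (1.15), and its partner COX5A (0.86), the ATP synthase subunit ATP5MC3 (1.12) and the complex I subunit NDUFS1 (0.83) rose with it. Of the 13 tested mitochondrially encoded genes 11 were called higher as deposited and 5 under all scalings. ND3, a complex I subunit, held 7380, 8140 and 7080 FPKM in knockout and 4590, 4300 and 4910 FPKM in wild type (0.71). Of 43 autophagy and lysosome genes 19 rose and 8 fell, among the rises the lysosomal proteases CTSD (1760, 1680 and 1710 FPKM in knockout, 811, 966 and 754 FPKM in wild type, a difference of 1.03) and CTSB (0.98).

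**Figure D3:**
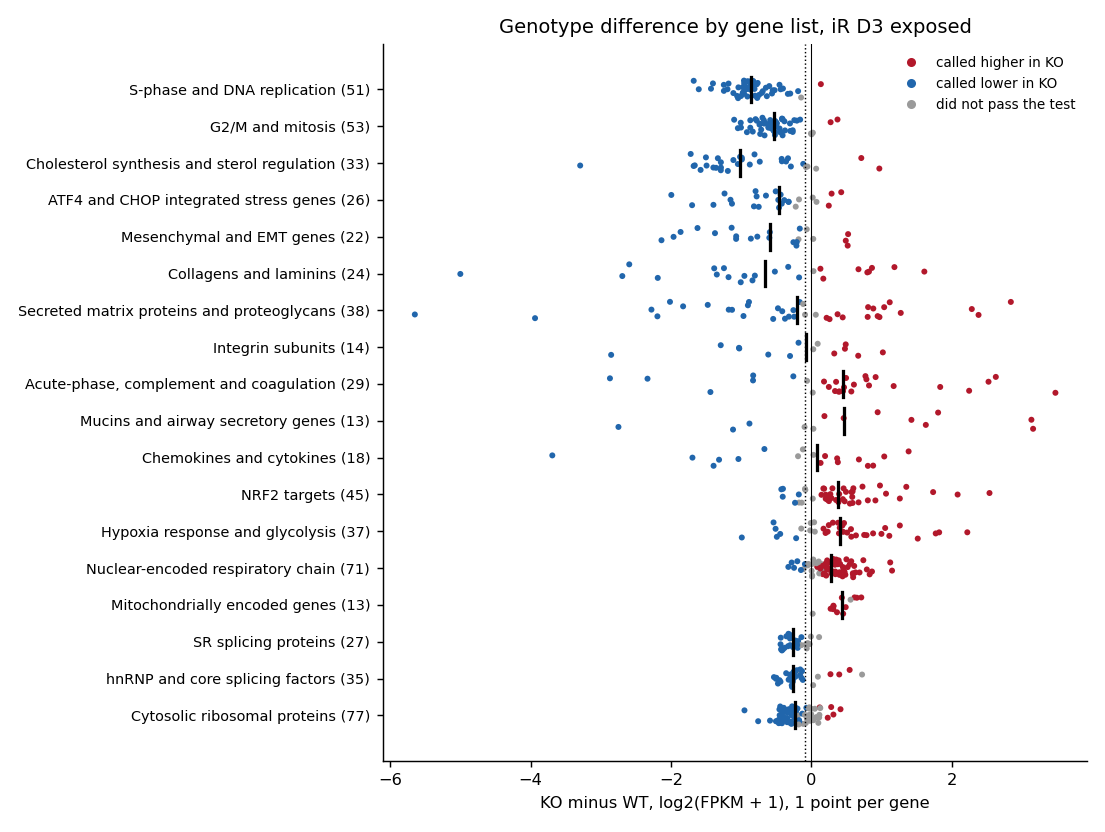
Knockout minus wild-type difference in log2(FPKM + 1) for each tested member of 18 gene lists, with the number of tested genes beside each name. Red and blue points were called higher and lower, grey points did not pass, black bars are list medians and the dotted line is the median of all genes (−0.093); the S-phase and G2/M lists lie almost wholly to the left of it.

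Splicing factors, the class whose composition RSRP1 shares, differed by small amounts. Of 27 SR splicing proteins 20 were lower and 0 higher, 16 of them lower under all scalings, with a median of −0.26, and the fall of none reached 1. LUC7L, a factor of 5′ splice site choice, held 9.96, 9.52 and 9.97 FPKM in knockout and 14.7, 12.5 and 13.9 FPKM in wild type (−0.44). RNPS1 of the exon junction complex held 38.0, 37.6 and 36.8 FPKM in knockout and 49.2, 56.6 and 47.6 FPKM in wild type (−0.44), and RSRC2 (−0.43) and SRRM1 (−0.42) fell by similar amounts. Of 35 hnRNP and core splicing factors 28 fell and 3 rose, 22 of the falls under all scalings. SF3B3 of the U2 snRNP (−0.53), HNRNPD (−0.505) and HNRNPA1 (−0.50) fell, and MBNL2, a regulator of alternative exons, rose (0.545). Among 14 genes for the phosphorylation of SR proteins 3 rose and 6 fell, near the 26.0% higher and 43.9% lower of all tested genes. CLK1 (0.44) and CLK4 (0.56), which phosphorylate SR proteins, and the phosphatase subunit PPP1CB (0.96) rose, and the kinase DYRK3 held 2.43 ± 0.12 FPKM in knockout and 5.76 ± 0.34 FPKM in wild type (−0.98). Of 77 cytosolic ribosomal protein genes 48 fell and 5 rose, 40 of the falls under all scalings, with a median of −0.24 as deposited and −0.156 after median-of-ratios. RPS2 (−0.76) and RPSA (−0.59) were among the largest falls, and both have many pseudogenes that may take reads. FPKM gives levels per gene and not the use of exons, so splicing itself was not measured here.

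Other gene groups were mixed, and the shares of all tested genes were 26.0% higher and 43.9% lower. Of 37 p53 targets 20 fell and 5 rose, with the stress sensor SESN2 (−1.15) and the matrix protein THBS1 (−1.13) lower and the desmosome protein PERP higher (0.90). Of 28 interferon-stimulated genes 14 rose and 6 fell. DDX58, the RNA sensor RIG-I, held 2.42, 2.24 and 2.55 FPKM in knockout and 8.8, 8.36 and 10.3 FPKM in wild type (−1.58), while IFITM1 (0.98), IFITM3 (0.95) and IFIT1 (0.95) rose. HLA-B (1.34) and HLA-C (1.11), similar genes whose products present peptides, rose in a list of 16 with 8 higher and 5 lower. Among the falls of that list were HLA-DMB (−0.735) and TAPBP (−0.477). Of 23 immediate early genes 12 fell and 8 rose, with FOS (0.95) higher and its relative FOSL1 (−0.81) lower. The phosphatases DUSP16 (1.18), DUSP5 (1.11) and DUSP1 (0.84), which switch off MAP kinases, rose in a list of 18 feedback genes with 7 higher and 7 lower. PHLDA1 of the same list fell (−0.982).

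The counts that follow stand beside 26.0% higher and 43.9% lower among all tested genes. Of 16 BCL2 family genes 6 rose and 6 fell, with the cell death activator BCL2L11 at 9.91 ± 0.33 FPKM in knockout and 3.74 ± 0.38 FPKM in wild type (1.205). Of 15 clock genes 9 rose and 3 fell, with ARNTL2, a partner of CLOCK, the largest fall (−1.01). Of 14 Kruppel-like factors 8 rose and 2 fell, with KLF13 (1.36) and KLF5 (1.10) highest. Of 6 metallothioneins 1 rose and 1 fell. Of 38 vesicle fusion and secretion genes 15 rose and 11 fell, and after VAMP8 and CPLX2 the priming factor UNC13D rose (1.84) and the Rab effector SYTL2 fell (−1.19). Of 23 YAP targets 8 rose and 11 fell, a share of falls near that of all tested genes, with the GTPase-activating protein DLC1 higher (2.05) and the matricellular protein CCN1 lower (−1.48).

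Exposure went with a different genotype difference in few genes. Set against the same contrast in unexposed iR D3 cells, 288 genes (2.38%) had a difference that was called to differ between exposed and unexposed cells, 150 more positive (1.24%) and 138 more negative (1.14%) with exposure. This count moved with the fit and with single libraries. It was 106 where only the 4 compared groups were fitted, 504 without iR_WTA_D3_EX replicate 3, 170 without iR_KOA_D3_NE replicate 2 and 189 without iR_WTA_D3_NE replicate 3. Of 23 YAP targets 8 were called more positive and 0 more negative, or 5 more positive where only the compared groups were fitted. CCN2, a secreted matricellular protein of that list, held 8.62, 9.0 and 8.71 FPKM in knockout and 3.57, 3.77 and 3.97 FPKM in wild type with exposure (1.04). Without exposure it held 2.29, 2.13 and 2.32 FPKM in knockout and 2.47, 2.31 and 2.51 FPKM in wild type (−0.08). The knockout libraries thus stood above the wild-type libraries with exposure and overlapped them without it, and the difference between the contrasts was 1.12 (adjusted p = 2.15e-07). AJUBA, a LIM protein of cell junctions, differed by −0.67 with exposure and by −1.50 without it (adjusted p of the change = 1.06e-06). CDKN2D, an inhibitor of CDK4 and CDK6, held 1.76, 1.89 and 2.04 FPKM in knockout and 7.0, 6.36 and 5.33 FPKM in wild type with exposure (−1.31) and differed by −0.08 without it (adjusted p of the change = 8.3e-05). For RSRP1 the change was −0.37 (adjusted p = 0.0139, and 0.0691 where only the 4 compared groups were fitted).

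**Figure D4:**
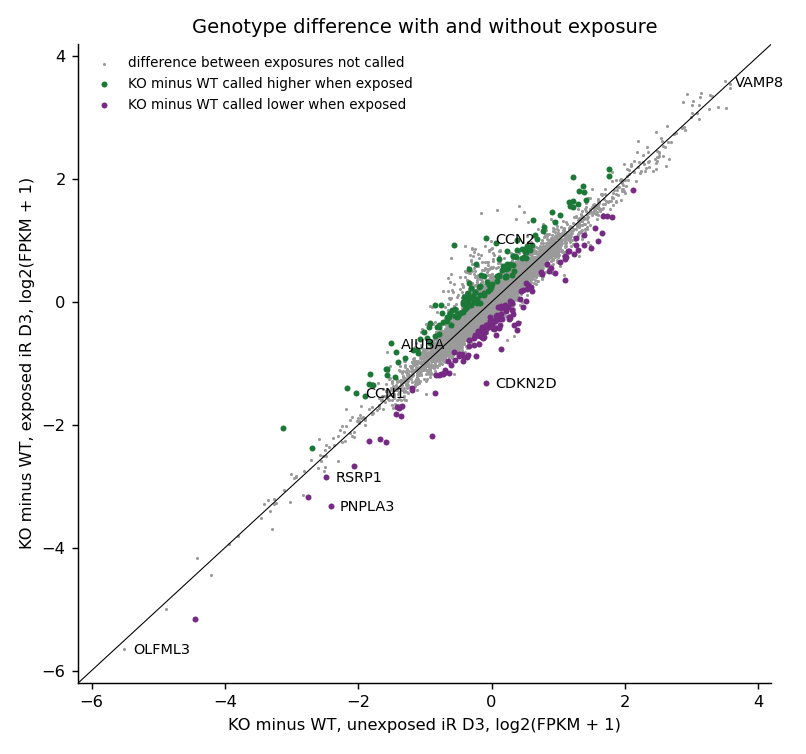
Knockout minus wild-type difference in log2(FPKM + 1) of each tested gene in exposed against unexposed iR D3 cells, with the line of equality. Colours mark the 150 and 138 genes whose difference was called more positive or more negative with exposure; CCN2 lies at 1.04 exposed and −0.08 unexposed.

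Most large differences were also seen in the 3 other backgrounds, which share no library with the main contrast but carry the same genotype labels. Of the 728 genes called with a difference of at least 1, 720 were called in the same direction in unexposed iR D3 cells, 719 in exposed iR cells and 715 in unexposed iR cells, and 713 (97.9%) in all 3. Of all 8447 called genes, 5635 (66.7%) were called in the same direction in all 3. The sign was the same in 89.1%, 85.3% and 83.4% of all tested genes. The shares of all tested genes called there, in either direction, were 69.1%, 65.6% and 65.3%. All 15 largest rises and 15 largest falls were called in the same direction in each. OLFML3, for example, differed by −5.51, −5.53 and −5.54 in unexposed iR D3, exposed iR and unexposed iR cells, and CPLX2 by 3.58, 3.62 and 3.62.

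The label D3 went with a different genotype difference in many genes. Set against exposed iR cells without D3, 2164 genes (17.9%) had a difference called to differ, 711 more positive (5.88%) and 1453 more negative (12.0%) with D3. Where only the 4 compared groups were fitted the count was 1165. In 1474 of the 2164 the difference was larger in size with D3, and in 574 it had opposite signs. Of the 51 S-phase genes 48 were more negative and 0 more positive with D3, and their median difference was −0.86 with D3 and −0.26 without it. Their summed level without D3 was 1150, 1170 and 1250 FPKM in knockout and 1380, 1450 and 1490 FPKM in wild type, above both genotypes with D3. CDC6 differed by −1.43 with D3 and by −0.135 without it (adjusted p of the change = 1.4e-13), and the exonuclease EXO1 by −1.37 and −0.05 (adjusted p of the change = 8.83e-12).

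Of the 33 cholesterol genes 27 were more negative and 2 more positive with D3, beside 12.0% and 5.88% of all tested genes. Their median difference was −1.02 with D3 and −0.43 without it, and their summed level without D3 was 970, 953 and 992 FPKM in knockout and 1280, 1250 and 1260 FPKM in wild type. In knockout the sum was lower with D3 than without it, in wild type it was higher, and the libraries with and without D3 overlapped in neither genotype. Of the 26 ATF4 and CHOP genes 15 were more negative and 2 more positive with D3, among them TRIB3, at −1.70 with D3 and −0.40 without it (adjusted p of the change = 7.88e-10).

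Several genes higher in the knockout with D3 had a more positive difference there than without it. The NRF2 list, mostly higher in the knockout, went the other way. Of its 45 genes 4 were more positive and 18 more negative, with a median of 0.39 with D3 and 0.47 without it. Of the 29 acute-phase genes 14 were more positive and 4 more negative, beside 5.88% and 12.0% of all tested genes. LCN2, which binds iron-carrying siderophores, differed by 1.425 with D3 and by −0.28 without it (adjusted p of the change = 4.4e-10), and SLPI by 3.13 and 1.79 (adjusted p of the change = 2.07e-07). The hypoxia marker CA9 differed by 2.22 with D3 and by 0.225 without it (adjusted p of the change = 4.01e-08). For the respiratory chain 21 of 71 genes were more positive and 0 more negative with D3, but the first count was 3 where only the 4 compared groups were fitted. It was 9 without iR_KOA_EX replicate 2, 12 without iR_KOA_D3_EX replicate 2 or without iR_WTA_EX replicate 2, and 13 without iR_WTA_EX replicate 1. The summed level of these genes was 8050, 6570 and 8080 FPKM in iR_KOA_EX replicates 1 to 3, so that replicate 2 lay apart.

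**Figure D5:**
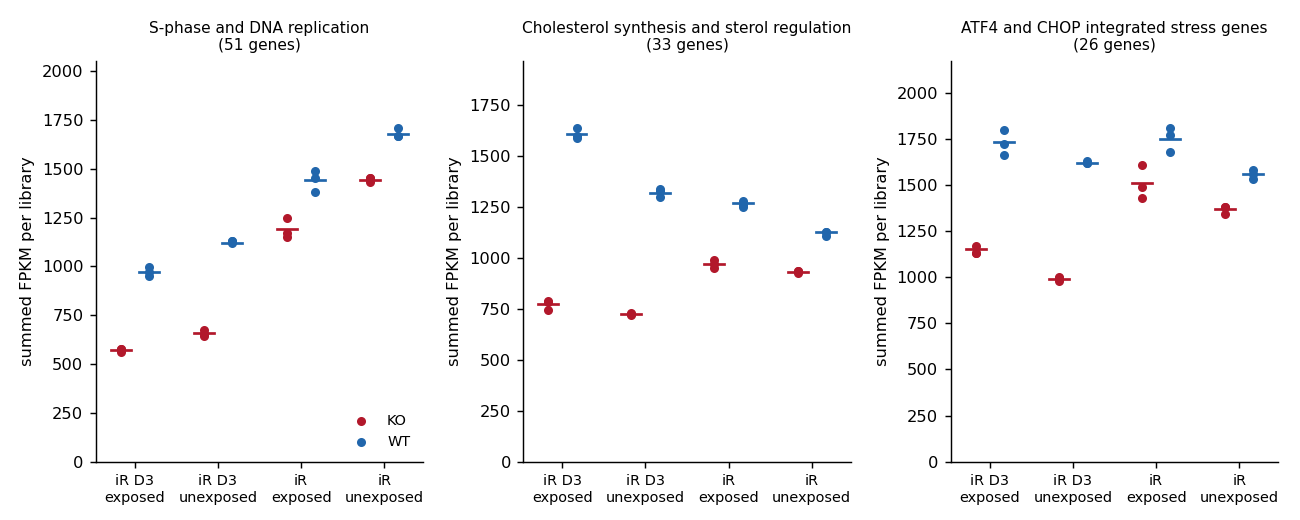
Summed FPKM per library of S-phase, cholesterol, and ATF4 and CHOP genes in knockout (red, left of each pair) and wild-type (blue) libraries of 4 backgrounds. With exposure and D3, S-phase sums were 575, 561 and 578 FPKM in knockout and 953, 998 and 969 FPKM in wild type, and without D3 1150, 1170 and 1250 FPKM in knockout and 1380, 1450 and 1490 FPKM in wild type.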

How the data were processed

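Polyadenylated RNA of A549 cells was extracted with TRIzol, treated with DNase, selected with oligo(dT) and reverse transcribed from random primers, per the labels' protocols. Reads were handled with fastp, HISAT2 and HTSeq on GRCh38, per the submitters' processing notes; the annotation, strand setting, gene lengths and filters behind the table are not given in those notes or labels. The authors deposited 1 table of FPKM for 26801 genes, in which 6 value columns matched no sample and were not used. Columns were tied to samples by title.

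Of 25991 genes with a value above 0, 25990 held whole multiples of 1 read within a tolerance of 0.01, which gave each library's relative depth. The test kept genes that reached 1 FPKM in 3 or more of the 30 libraries (12086, of which 11150 are protein coding). The log2(FPKM + 1) values of all 10 groups of 3 were fitted in limma 3.58.1 (R 4.3.3) with a mean-variance trend and 20 residual degrees of freedom, without a replicate block, with Benjamini-Hochberg adjustment of p over all genes. Further contrasts tested whether the genotype difference differed with exposure or with D3. In simulated data for the main comparison the fit found 21 of 50 genes changed 1.25-fold. It also found 49 of 50 changed 1.5-fold and 50 of 50 changed 2-fold. Of 12085 genes simulated, 9 that had been left unchanged were falsely called. The simulation gave every gene the same spread beyond counting noise and changed few genes. In the data 69.9% of genes were called and the spread between replicates was uneven, so these rates do not describe the main comparison.

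The comparison and its 50 gene lists were chosen with earlier results of these data known, so the lists are described by counts and medians and not tested as sets. Of 1621 list names, 1587 were found by symbol, 18 by another name and 16 not at all. Named genes are RSRP1, the 15 largest rises and falls with a mean of at least 2 FPKM in 1 group and separate libraries, up to 4 called members of each list by size, the 6 largest of each sign for each change of the genotype difference, and the markers; a few genes that the rule names are not reported here. Promoters and positions came from RefSeq tables of GRCh38.p14, read with Python 3.11.15. Alternatives were a pseudocount of 0.1, no filter, a fit of the compared groups alone, 3 scalings, a replicate block and leaving out each library.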

Additional observations from a re-analysis of the deposited data

Results flagged for a closer look

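The genotype difference of 13 genes named by the rule, RSRP1 included, differed between exposed and unexposed iR D3 cells in limma's test of the change (adjusted p under 0.05). Values are the difference in exposed cells minus that in unexposed cells, on log2(FPKM + 1). More positive with exposure were TGFB2-AS1 (1.49), the matricellular gene CCN2 (1.12), the small GTPase RRAD (1.08), ZNF232-AS1 (0.89), TYMSOS (0.85) and AJUBA (0.83). TGFB2-AS1, ZNF232-AS1 and TYMSOS overlap or lie opposite other genes, from whose reads they cannot be told apart. More negative were the cytokine receptor IL21R (-1.28), CDKN2D (-1.24), FAM214B (-0.9), the lipid-droplet protein PNPLA3 (-0.9), the GTPase RND1 (-0.84), the histone gene H3-5 (-0.75) and RSRP1 (-0.37). The call of ZNF232-AS1 was lost where only the 4 compared groups were fitted (adjusted p = 0.119) and without iR_WTA_D3_EX replicate 2, iR_KOA_D3_NE replicate 1, iR_KOA_D3_NE replicate 2 or iR_WTA_D3_NE replicate 3 (0.0512 to 0.0569). The call of H3-5 was lost there too (0.0867), without the filter on low values (0.0886) and without most single libraries (0.0501 to 0.125).

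The genotype difference also differed between exposed iR D3 and exposed iR cells for 11 such genes that are reported here. More positive with D3 were CA9 (2.0), LCN2 (1.7), the lubricating proteoglycan PRG4 (1.63), the carboxylesterase CES1 (1.36), SLPI (1.35) and RSRP1 (0.28). CES1 has near-identical relatives, and its reads may be exchanged with theirs. More negative were OLFML2A (-1.39), EXO1 (-1.32), TRIB3 (-1.3), CDC6 (-1.29) and the organic anion transporter SLCO4C1 (-1.19). The call of RSRP1 was lost where only the 4 compared groups were fitted (adjusted p = 0.0674) and without iR_KOA_D3_EX replicate 1 (0.0572), iR_WTA_D3_EX replicate 1 (0.0507) or iR_KOA_EX replicate 1 (0.059). All of these changes are descriptions of genes picked for their size from those called.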

How the results depend on the processing

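Of 728 genes called with a difference of at least 1, 726 to 728 were called in the same direction under every alternative, and their number was 1414 with a pseudocount of 0.1. When 1 library was left out, the main call counts were 7962 to 8327 in all, 2906 to 3201 higher and 4968 to 5147 lower. Differences of at least 1 then numbered 720 to 755, and the RSRP1 difference was -2.884 to -2.798. Where only the compared groups were fitted, 7545 genes were called, 2805 higher and 4740 lower. Without the filter on low values, which tests more genes, 9930 were called, 3883 higher and 6047 lower. The median difference over all genes was -0.0925 as deposited.

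Genes whose genotype difference changed with exposure numbered 106 (59 more positive, 47 more negative) where only the compared groups were fitted, and 170 to 504 (95 to 243, and 75 to 261) when 1 library was left out; 8 YAP targets became 5, and 6 to 8. Those that changed with D3 numbered 1165 (361 and 804), and 1787 to 2232 (587 to 805, and 1186 to 1444). Respiratory chain genes more positive with D3 numbered 3 and 9 to 30. Mitochondrially encoded genes called higher numbered 5 after quantile normalization and 10 to 12 when 1 library was left out. The cause of these shifts was not tested.

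With a replicate block 8455 genes were called, 8386 of them also called without it. Same-numbered libraries had correlated deviations of 0.2078, 0.2336 and 0.0932; the last is under the 0.1 set for each pair, so pairing by number was not established, and wild-type replicate 3 correlated best with knockout replicate 1 (0.129). No listed result changed its call under the block, and none changed sign under any alternative.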
